A study of Homo sapiens with 12 samples.

Results

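The transcripts of 10 ETS transcription factors with known roles in prostate cancer or prostate epithelium (ETV1, ETV4, ETV5, ETV6, ERG, FLI1, ETS2, ELF3, EHF and SPDEF) were followed in 2 prostate cancer cell lines. They were found by gene symbol among the 60314 named entries of the expression tables, and all 10 were present. The lines were C4-2B, a castration-resistant derivative of LNCaP, and 22RV1, from a castration-resistant xenograft, both labelled wild type. Cells of both lines were kept for 48 h in RPMI-1640 made without glutamine, with fetal bovine serum, to which 2 mM L-glutamine was returned. Control cells received nothing further, and treated cells also received 50 nM of the 56-mer, a short folded oligonucleotide of the aptamer class, which are made to grip a chosen molecule. Each of the 4 groups had 3 libraries, and no group lacked glutamine. Each line is a single established tumour line, so values describe these cultures and not prostate tumours at large.

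ETS proteins share a DNA-binding domain that reads the core sequence GGAA, and members differ in the bases they prefer around it and in whether they activate or repress. In many prostate tumours a rearrangement places ERG, or less often ETV1, ETV4, ETV5 or FLI1, behind the androgen-driven control region of a gene such as TMPRSS2, and the ETS factor is then overproduced. ETV1, ETV4 and ETV5 form the PEA3 group, whose transcripts and proteins rise with signalling through the MAP kinase pathway, whereas ELF3, EHF and SPDEF belong to the differentiation programme of luminal and secretory epithelia.

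Libraries held 8847368 to 13740386 reads. A gene at 0 in 1 library may therefore still have stood at up to 0.218 to 0.339 RPM, the level of 3 reads. RPM is the read number of a gene scaled to a library of 1000000 reads. The authors normalized the tables of the lines separately. Levels of the lines are set side by side below without a test, in RPM. At least 1 read was found for 20779 to 22686 genes per C4-2B library and 28342 to 31010 per 22RV1 library. What part this difference has in the line contrasts below was not tested. All 6 luminal prostate markers counted here (KLK3, KLK2, HOXB13, KRT8, KRT18 and FOLH1) passed the minimum of 10 normalized counts in at least 3 of 6 libraries in both lines, and their summed normalized counts ran, within each line, from 31659 to 35394 in C4-2B and from 25264 to 26935 in 22RV1. Of 4 basal markers, KRT5 and TP63 were at 0 throughout. KRT14 had 22 reads over the C4-2B controls and 1 over the 22RV1 controls, and KRT15 had 52 and 21. In C4-2B 1 of the 4 passed the minimum, and in 22RV1 0 did. In bulk RNA, fewer cells expressing a gene and less RNA per cell cannot be told apart.

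The PEA3 factors separated the lines. ETV4 had 26 reads over the 3 C4-2B controls and 1434 over the 3 22RV1 controls, ETV5 had 10 and 1782, and ETV1 had 3 and 1354. In RPM these were 0.746 and 38.3 for ETV4, 0.287 and 47.7 for ETV5, and 0.0861 and 36.2 for ETV1. The ratio of 22RV1 to C4-2B was 51.4 for ETV4 (95% counting interval 34.9 to 79.0), 166 for ETV5 (90.1 to 347) and 421 for ETV1 (144 to 2042). These intervals cover counting error only. All 22RV1 controls lay above all C4-2B controls for each of the 3 genes. ETV1 and ETV5 reached the minimum in 22RV1 alone, so that a difference between the lines followed from their passing. Among the 21647 genes that reached it in either line, 15.9% were at least 10-fold higher in 22RV1 and 2.42% at least 10-fold higher in C4-2B. The members at least 10-fold higher in 22RV1 were these 3, and no member was 10-fold higher in C4-2B.

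LNCaP, the parent of C4-2B, is known for a rearranged and highly expressed ETV1 gene. Against that background ETV1 stood at 0, 0 and 3 reads in the C4-2B controls and at 0 in all 3 C4-2B libraries with 56-mer. This near-absence goes against what is known of the parent line, its reason was not tested, and the ratio of 421 above carries the same doubt. The symbol was counted in the other line, with 404, 424 and 468 normalized counts in 22RV1 controls and 488, 480 and 422 with 56-mer. The 22RV1 groups overlapped. The limma log2 change with 56-mer was 0.10 (95% interval −0.14 to 0.35, adjusted p = 0.9996). In C4-2B ETV1 fell below the minimum and was not tested.

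ETV4, a PEA3 factor that promotes invasive growth in prostate models, had 6.42, 7.98 and 11.0 normalized counts in C4-2B controls and 8.82, 30.5 and 20.5 with 56-mer. The highest control lay above the lowest treated library, so the groups overlapped, and the treated values rest on 9, 32 and 21 reads. The C4-2B log2 change was 1.02 (95% interval −0.65 to 2.69, limma adjusted p = 0.747). In 22RV1 the controls had 463, 471 and 446 normalized counts and the treated libraries 359, 575 and 399. The treated libraries spread on both sides of the narrow control range, with means of 460 ± 12.7 and 444 ± 115 (SD, n = 3). The log2 change was −0.079 ± 0.13 (SE, limma adjusted p = 0.9996), and without 56-mer replicate 2 it was −0.28.

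ETV5, a PEA3 factor known from stem cell maintenance and growth factor responses, had 2, 5 and 3 reads in C4-2B controls and 4, 0 and 0 with 56-mer, too few for a test. In 22RV1 it had 644, 539 and 534 normalized counts in controls and 658, 578 and 591 with 56-mer. Control replicate 1 lay within the treated range. The log2 change was 0.092 (limma adjusted p = 0.9996). Summed over ETV1, ETV4 and ETV5, the level was 1.10 ± 0.339 RPM in C4-2B controls and 122 ± 3.53 RPM in 22RV1 controls (SD, n = 3). Within C4-2B the normalized sums were 8.57, 13.7 and 16.1 in controls and 12.7, 30.5 and 20.5 with 56-mer. Thus 2 treated libraries lay above every control and 1 among them. In those 2 libraries ETV1 and ETV5 had 0 reads, so the sum there repeats the low ETV4 counts given above. Within 22RV1 the sums were 1464 ± 40.8 in controls and 1517 ± 110 with 56-mer (SD, n = 3) and overlapped.

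**Figure D1:**
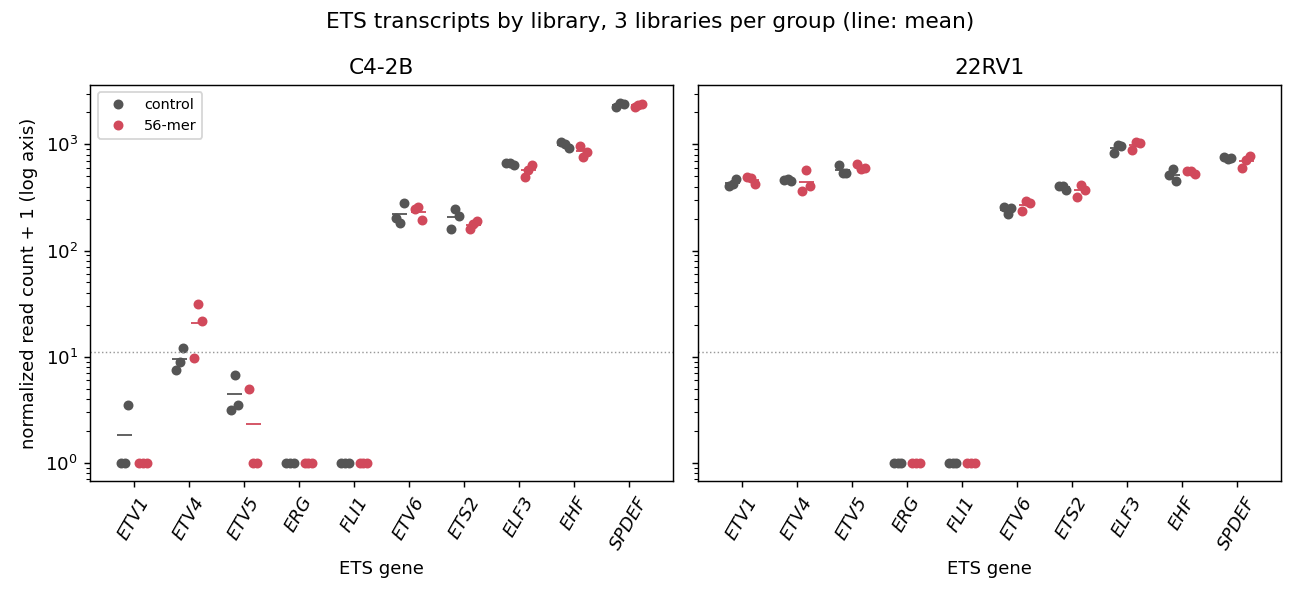
Normalized counts of each member (log axis, value plus 1) in the 12 libraries, by line and treatment, with 1 point per library and a bar at the mean (the tables of the lines were normalized separately); the dotted line marks the minimum of 10 used for testing. ETV1, ETV4 and ETV5 lie near the bottom in C4-2B and far above the minimum in 22RV1, and within each line the control and 56-mer points overlap for every member.

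Because ETV1 was nearly absent from one line and abundant in the other, the 250 bases before its first listed start are shown, at chr7:13990703-13990952 on the minus strand of GRCh38.p14 from RefSeq, with GGAA and its reverse complement TTCC in capitals.
ETV1: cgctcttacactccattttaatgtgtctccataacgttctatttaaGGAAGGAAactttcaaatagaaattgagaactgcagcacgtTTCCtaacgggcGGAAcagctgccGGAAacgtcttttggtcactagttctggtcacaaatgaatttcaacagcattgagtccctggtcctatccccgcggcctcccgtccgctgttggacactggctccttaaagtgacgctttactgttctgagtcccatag
The window held 5 GGAA matches over both strands, 1 of which lies within AGGAAG and 1 within CCGGAA, which are longer forms of the same core. Of 27305 promoters of this length, 92.8% held GGAA, 28.7% AGGAAG and 14.8% CCGGAA, and the median number of GGAA matches was 3. RefSeq lists 6 starts for ETV1, and the window covers 1 of them. The table held 7 of the 10 members, without ETV4, ETV5 and FLI1.

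ERG, the factor most often activated by fusion in prostate cancer, and FLI1, its close relative known from Ewing sarcoma and from blood and endothelial cells, had 0 reads in all 12 libraries. Over the 145546531 reads of the series, with both lines pooled, a count of 0 allows up to 0.0206 RPM for each. The limit for 1 line alone is higher. Endothelial cells normally express both genes, and leukocytes normally express FLI1. Of the defining markers of these 2 cell types, PECAM1, KDR, TEK, EMCN and CD3E were at 0 in every C4-2B library. That makes 4 of 7 endothelial and 1 of 5 leukocyte markers. CDH5, KDR and CD3E were at 0 in every 22RV1 library, 2 of 7 and 1 of 5. Markers above the minimum were VWF, CLDN5 and CD68 in C4-2B, with 148 ± 75.3, 12.5 ± 12.9 and 142 ± 75.0 normalized counts in controls (SD, n = 3). In 22RV1 they were CLDN5 with 30.2 ± 17.4 and CD68 with 17.5 ± 5.67, and EMCN had 13.5 ± 10.4 without reaching it in enough libraries. Of the 18 other ETS genes, ETV3L was the only one with a mean of 0 in the controls of both lines. The promoter of ERG is shown as that of a gene without reads, at chr21:38660668-38660917, minus strand, with the same capitals.
ERG: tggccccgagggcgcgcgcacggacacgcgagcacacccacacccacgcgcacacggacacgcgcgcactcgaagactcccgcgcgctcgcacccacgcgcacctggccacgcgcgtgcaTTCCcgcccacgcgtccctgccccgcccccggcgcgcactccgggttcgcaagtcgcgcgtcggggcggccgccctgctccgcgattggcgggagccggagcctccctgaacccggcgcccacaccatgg
It held 1 GGAA match and had a GC content of 77.2%, against a median of 58.0% over all promoters and 47.2% for ETV1. It had 44 CpG pairs, against a median of 11.

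ETV6, a transcriptional repressor of the family, and ETS2, a broadly expressed activator that is phosphorylated by MAP kinases, were present in both lines at moderate levels. ETV6 had 201, 181 and 277 normalized counts in C4-2B controls and 243, 256 and 194 with 56-mer. In 22RV1 the controls had 254, 218 and 252 and the treated libraries 232, 291 and 281. The groups overlapped in both lines, with log2 changes of 0.084 (95% interval −0.33 to 0.50) in C4-2B and 0.15 in 22RV1, limma adjusted p = 0.940 and 0.9996. ETV6 was the only member with reads whose controls overlapped between the lines, at a ratio of 1.05.

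ETS2 had 160, 243 and 209 normalized counts in C4-2B controls and 157, 176 and 187 with 56-mer, and 406, 402 and 368 in 22RV1 controls and 321, 409 and 369 with 56-mer. C4-2B control replicate 1 lay among the treated libraries, and the 22RV1 groups overlapped as well. The log2 changes were −0.22 in C4-2B (limma adjusted p = 0.810) and −0.10 in 22RV1 (0.9996). In controls ETS2 was 1.87-fold higher in 22RV1 in RPM.

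The epithelial factors held the reverse order for EHF and SPDEF. SPDEF, an androgen-responsive factor of prostate secretory cells, had 2255, 2449 and 2380 normalized counts in C4-2B controls and 2226, 2344 and 2399 with 56-mer. In 22RV1 it had 751, 721 and 734 in controls and 593, 709 and 771 with 56-mer. SPDEF was 3.30-fold higher in C4-2B controls in RPM, without overlap between the lines, where 15.4% of genes were at least 2-fold higher in C4-2B. With 56-mer its log2 change was −0.023 (95% interval −0.19 to 0.14, limma adjusted p = 0.959) in C4-2B and −0.097 in 22RV1 (0.9996), with overlapping groups.

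EHF, which restrains stem-like and mesenchymal states in prostate epithelium, had 1043, 996 and 931 normalized counts in C4-2B controls and 960, 760 and 851 with 56-mer. The treated libraries were on the whole lower, but treated replicate 1 lay above control replicate 3. The log2 change was −0.21 (95% interval −0.45 to 0.021) and did not pass (limma adjusted p = 0.599). In 22RV1 EHF had 514, 586 and 447 in controls and 558, 553 and 519 with 56-mer, with overlap and a log2 change of 0.083. In controls EHF was 1.98-fold higher in C4-2B in RPM.

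ELF3, a factor of epithelial differentiation, had 666, 662 and 639 normalized counts in C4-2B controls and 491, 570 and 643 with 56-mer. Treated replicate 3 lay among the controls and the other two lay below them. The log2 change was −0.21 (95% interval −0.48 to 0.052, limma adjusted p = 0.662). In 22RV1 it had 828, 991 and 969 in controls and 891, 1059 and 1024 with 56-mer, with overlap and a log2 change of 0.094. ELF3 was 1.38-fold higher in 22RV1 controls. The antisense gene ELF3-AS1 stood at 62.1 RPM in C4-2B controls and 96.4 RPM in 22RV1 controls. Whether the counting used strand is not given, so reads of ELF3 and ELF3-AS1 cannot be told apart. ETV5-AS1 had 0 reads in C4-2B and 0 to 17 reads per 22RV1 library.

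Summed over ELF3, EHF and SPDEF, C4-2B stood at 4006 ± 86.7 normalized counts without and 3748 ± 125 with 56-mer (SD, n = 3). The lowest control sum was 3949 and the highest treated sum 3892. This sum was formed from members named above and was not tested. The groups stayed apart in 14.7% of single genes tested in C4-2B, and in no single member. In 22RV1 the sums were 2180 ± 105 and 2226 ± 159 and overlapped. The promoters of the pair that was higher in C4-2B are given for comparison with that of ETV1, EHF at chr11:34624007-34624256 on the plus strand and SPDEF at chr6:34556330-34556579 on the minus strand, with GGAA and TTCC in capitals.
EHF: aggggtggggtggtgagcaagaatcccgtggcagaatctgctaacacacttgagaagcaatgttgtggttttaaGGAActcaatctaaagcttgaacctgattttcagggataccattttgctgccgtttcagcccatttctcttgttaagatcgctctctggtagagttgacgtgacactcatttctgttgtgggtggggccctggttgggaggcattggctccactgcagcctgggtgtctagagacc
SPDEF: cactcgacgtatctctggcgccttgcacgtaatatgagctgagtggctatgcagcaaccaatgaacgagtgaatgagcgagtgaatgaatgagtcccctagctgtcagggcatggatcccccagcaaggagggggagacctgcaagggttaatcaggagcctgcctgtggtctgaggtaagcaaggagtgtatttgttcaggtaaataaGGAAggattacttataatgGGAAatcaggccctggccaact
EHF held 1 GGAA match and SPDEF 2, of which 1 lies within AGGAAG, and neither held CCGGAA. Their GC contents were 50.0% and 50.8%.

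Levels can be compared between genes only per length, here as RPM per kilobase of exon. Per length, SPDEF was the most abundant of the 28 ETS genes in both lines, with 106 ± 4.91 in C4-2B controls and 32.1 ± 0.714 in 22RV1 controls (SD, n = 3), and its controls did not overlap those of the next gene. In C4-2B it was followed among the members by EHF with 19.3, ELF3 with 7.82, ETS2 with 3.81 and ETV6 with 2.67 RPM per kilobase. ETS2 and ETV6 overlapped in their controls, whereas the steps above them did not. ETV4 with 0.202, ETV5 with 0.0512 and ETV1 with 0.00763 followed on 3 to 26 reads each. These 3 did not overlap each other, while ETV1, at 0 in 2 of 3 controls, overlapped ERG and FLI1 at 0.

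In 22RV1 the PEA3 factors stood among the epithelial ones. After SPDEF came ELF3 with 10.8, ETV4 with 10.6, EHF with 9.81 and ETV5 with 8.23 RPM per kilobase, and each of these 4 overlapped its neighbour in the order. ETS2 with 7.12, ETV1 with 3.75 and ETV6 with 2.85 followed without overlap between them or with ETV5. These lengths join all annotated exons of a gene. With the median length of its coding transcripts instead, a choice made after seeing the data, the order in C4-2B stayed as it was, and in 22RV1 EHF moved from the fourth to the second place among the members, ahead of ELF3 and ETV4. With these lengths SPDEF no longer stood apart in 22RV1, with controls from 31.9 to 33.4 RPM per kilobase against 25.2 to 32.9 for EHF, whereas in C4-2B it still did.

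**Figure D2:**
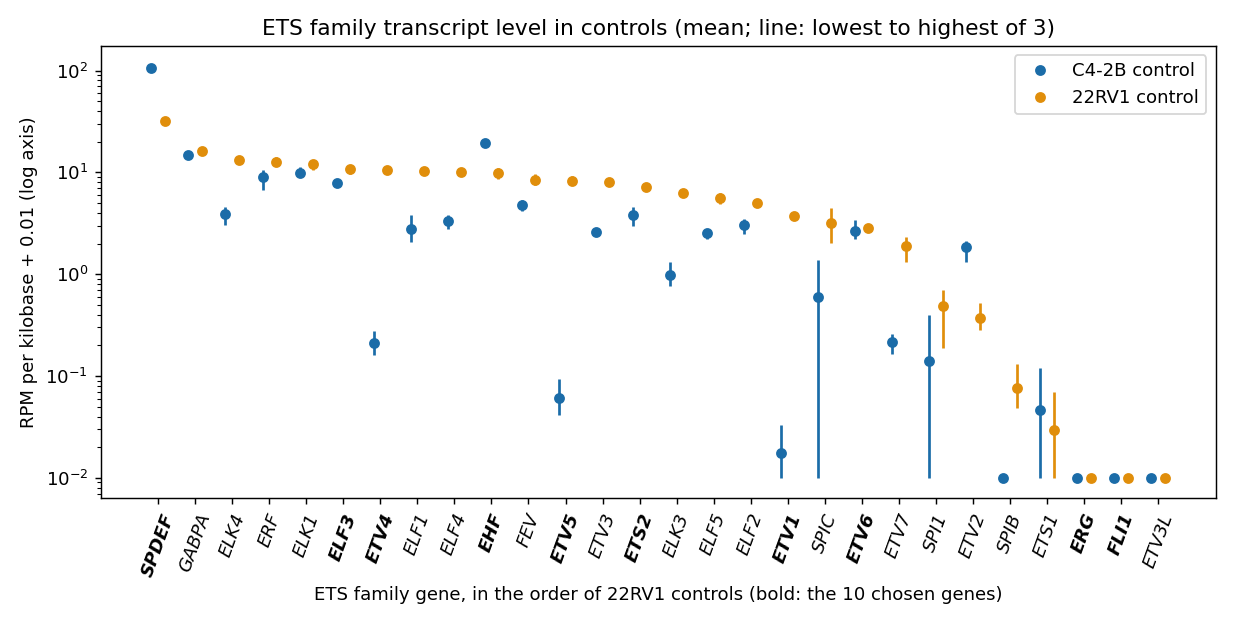
Control level of the 28 ETS genes in C4-2B and 22RV1, in RPM per kilobase of exon (plus 0.01, log axis), with a point at the mean and a line from the lowest to the highest of the 3 control libraries. SPDEF leads in both lines, and ETV1, ETV4 and ETV5 sit at the low end in C4-2B and among the expressed genes in 22RV1.

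Of the 18 ETS genes that are no members, 15 reached the minimum in either line. None of the 15 was at least 10-fold higher in either line, while 9 were at least 2-fold higher in 22RV1 and 1 in C4-2B. Of all genes, 58.3% differed at least 2-fold in either direction and 15.4% were at least 2-fold higher in C4-2B. The gene higher in C4-2B was ETV2, the endothelial and blood lineage factor, with 3.96 RPM in C4-2B controls and 0.776 in 22RV1 controls. ETV2 reached the minimum in C4-2B alone, and ETV7, SPI1 and SPIC in 22RV1 alone, so that a difference between the lines followed from their passing. The other 6 of the 9 reached it in both lines. GABPA, a ubiquitous activator of housekeeping genes, had a ratio of 1.08. ELK4, a partner of serum response factor, was 3.35-fold higher in 22RV1 and ELF1 3.84-fold. ETV7, a close relative of ETV6, was 9.16-fold higher on 17 and 167 reads. ETS1, the founding member of the family, had 8 reads over the C4-2B controls and 5 over the 22RV1 controls.

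No member passed the adjusted p threshold of 0.05 with 56-mer in either line. Here and below, rose or fell means passing that threshold. With 3 libraries per group this does not show that the members were unchanged. In C4-2B 6 members were tested and limma called 0, where it called 11 of 16657 genes, or 0.066%. None of the 6 had an unadjusted p under 0.05, as 8.92% of genes did, and in none did the groups stay apart, as they did in 14.7% of genes. The 22RV1 comparison tested 8 members and called 0, against 0.00975% of 20517 genes. None of the 8 had an unadjusted p under 0.05, as 3.91% of genes did, and none had groups without overlap, as 9.03% did. DESeq2 and edgeR on the reads also called 0 members in each line, although DESeq2 gave an adjusted p to 1 of the 6 in C4-2B. ETV1 and ETV5 in C4-2B, and ERG and FLI1 in both lines, were below the minimum and not tested.

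In C4-2B 2 of the 6 tested members had a higher mean with 56-mer and 4 a lower one, with a median log2 change of −0.12, where the median of all genes was −0.011 and 48.3% were higher. In 22RV1 5 of 8 were higher and 3 lower, with a median of 0.088 against −0.0026. Without C4-2B 56-mer replicate 1 the C4-2B median was −0.054 with 3 higher and 3 lower, and the number of genes called in that line was 81 in place of 11, with no member among them.

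The difference of the 56-mer change between the lines, 22RV1 minus C4-2B, was tested for 6 members and passed for 0, as it did for 0.0% of 15527 genes. At an unadjusted p under 0.05 there was 1 member, ETV4, and 7.9% of genes. For ETV4 the difference was −1.10 ± 0.50 on the log2 scale (SE, 95% interval −2.14 to −0.058, limma adjusted p = 0.623). It rests on the low C4-2B reads given above, and with single libraries left out it ran from −1.57 to −0.72. ELF3 had a difference of 0.31 (limma adjusted p = 0.659) and EHF one of 0.30 (0.674). The differences for ETV6, ETS2 and SPDEF were 0.062, 0.11 and −0.074. The intervals leave room for changes of moderate size in both directions and do not show that the lines respond alike.

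**Figure D3:**
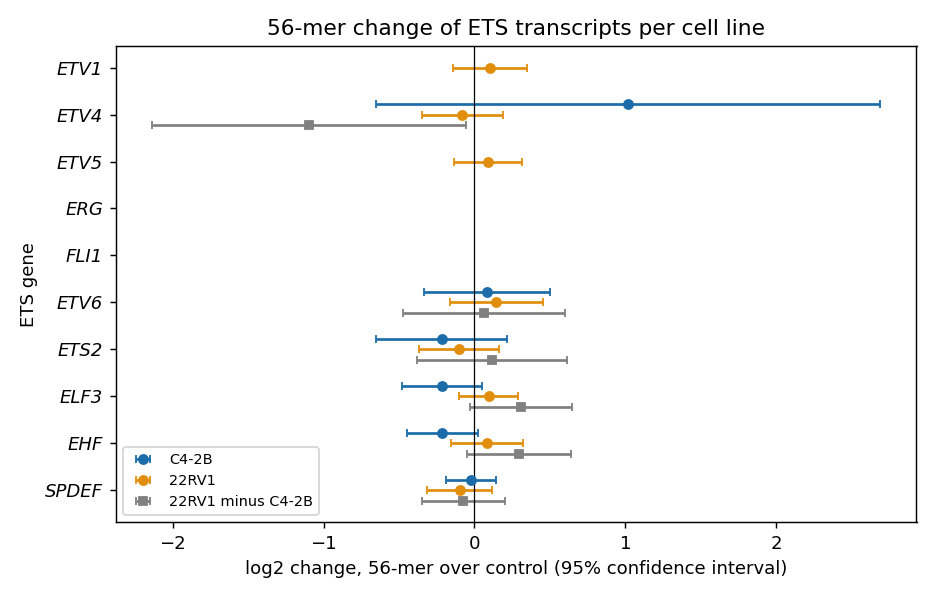
Log2 change with 56-mer of each tested member in C4-2B and 22RV1 (points, limma) with its 95% interval (bars); the line at 0 marks no change. All intervals of the change within a line include 0, and that of ETV4 in C4-2B, from −0.65 to 2.69, is the widest. Grey squares give the difference, 22RV1 minus C4-2B, for members tested in both lines. Among these only the interval of ETV4, from −2.14 to −0.058, leaves out 0 (limma adjusted p = 0.623).

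Genes around the ETS factors were then counted, each list having been chosen with earlier results of these data known. Proteins that control ETS protein stability or transcription include the COP1 ubiquitin ligase with its adaptors DET1, DDB1 and TRIB1, the ligase adaptor SPOP, and the repressor CIC with ATXN1 and ATXN1L. All 14 genes of this list passed the minimum in both lines, and 0 rose or fell with 56-mer. Their median log2 change was −0.046 in C4-2B and 0.013 in 22RV1. TRIB1, a pseudokinase that brings substrates to COP1, was the only one of the 14 at least 10-fold higher in 22RV1, as 15.9% of all genes were. TRIB1 had 6.77 RPM in C4-2B controls and 134 in 22RV1 controls. CIC, which represses the PEA3 genes, was 1.58-fold higher in 22RV1, ATXN1L 5.54-fold and COP1 1.87-fold. These 4 were picked after their values were seen. TRIB2 went the other way, at 4.14-fold higher in C4-2B, and SPOP had a 22RV1 to C4-2B ratio of 0.938. Of the 14, 5 were at least 2-fold higher in 22RV1 and 1, TRIB2, in C4-2B.

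The 12 genes that serve as 5-prime fusion partners of ETS genes in tumours were all expressed, and 0 rose or fell in either line. TMPRSS2, the androgen-induced protease gene that is the most frequent partner, stood at 542 RPM in C4-2B controls and 31.1 RPM in 22RV1 controls, 17.4-fold higher in C4-2B. NDRG1, an androgen- and stress-induced gene, was 16.5-fold higher there. These were the 2 of 12 at least 10-fold higher in C4-2B, as 2.42% of all genes were. FKBP5 and MIPOL1 went the other way, at 3.43-fold and 2.16-fold higher in 22RV1 controls, the 2 that were at least 2-fold higher there. ERG had 0 reads in both lines, and ETV1 had 3 reads over the C4-2B controls, a value in doubt as given above. Any relation of these reads to the TMPRSS2 level was not tested. In C4-2B 9 of the 12 had a lower mean with 56-mer, with a median log2 change of −0.048. Over all genes the median was −0.011 and 48.3% were higher. The number lower was 10 with equal totals and 8 without 56-mer replicate 2. NDRG1 had the smallest p among the 12, with a log2 change of −0.21 that did not pass (limma adjusted p = 0.399). In 22RV1 6 were higher and 6 lower.

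Of 15 genes induced by MAP kinase signalling, 7 were at least 10-fold higher in 22RV1 controls and 0 in C4-2B controls, where the shares of all genes were the 15.9% and 2.42% given above. They were DUSP6, SPRY2, SPRY4, SPRED1, EGR1, FOSL1 and EPHA4. SPRED1 alone reached the minimum in both lines. For the other 6, which reached it through 22RV1, a difference followed from their passing, so the count is a description and no support. DUSP6, a phosphatase that switches off ERK, had 0.430 RPM in C4-2B controls and 20.4 in 22RV1 controls. SPRY4, an inhibitor of receptor tyrosine kinase signalling, had 0 reads and 709 reads, at least 220-fold more in 22RV1 with 3 reads over the 3 C4-2B controls as the floor. EGR1, an immediate-early transcription factor, had 2.09 and 92.3 RPM, and CCND1, which encodes cyclin D1, had 338 and 2342. Any relation of these levels to those of the PEA3 factors was not tested, and the 2 lines differ in much else.

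With 56-mer 0 of 9 tested genes of this list rose or fell in C4-2B, and 0 of 15 in 22RV1. In 22RV1 14 of 15 had a higher mean, where 49.4% of all genes did, with a median log2 change of 0.069. The number was 13 under quantile normalization and with equal totals, and 9 without 56-mer replicate 2. SPRY4 had the smallest p, at 228 ± 27.1 normalized counts without and 295 ± 15.6 with 56-mer (SD, n = 3). Its log2 change was 0.37 (limma adjusted p = 0.9996). In C4-2B 5 of 9 were higher, but 3 of 9 with equal totals.

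Genes raised in ERG-positive tumours or by PEA3 factors did not move as 1 group between the lines. Of 18 genes above the minimum in either line, 9 were at least 10-fold higher in 22RV1, as 15.9% of all genes were, and 2 in C4-2B, TDRD1 and MMP7, as 2.42% of all genes were. Of the 9, 3 reached the minimum in both lines, VIM, SOX9 and CACNA1D. The others, AMPD3, NCALD, MMP1, MMP9, CXCR4 and LEF1, reached it through 22RV1, and TDRD1 and MMP7 through C4-2B, so that their differences followed from their passing. TDRD1, a germline gene that marks ERG-positive tumours, had 62 reads over the C4-2B controls and 0 over the 22RV1 controls. VIM, the mesenchymal filament vimentin, had 3.70 and 187 RPM, and MMP9, a matrix protease, had 0 reads in C4-2B and 2.49 RPM in 22RV1 controls. With 56-mer 0 rose or fell in either line, with medians of 0.067 over 11 genes in C4-2B and 0.16 over 15 in 22RV1.

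Of 14 epithelial genes that accompany ELF3, EHF and SPDEF, FOXA3 was at least 10-fold higher in 22RV1, as 15.9% of all genes were. TFF1 and TFF3 were at least 10-fold higher in C4-2B, as 2.42% of all genes were. None of these 3 reached the minimum in both lines, so that their differences followed from their passing. The secreted trefoil peptides TFF1 and TFF3 had 76 and 862 reads over the C4-2B controls and 0 over the 22RV1 controls, and the forkhead factor FOXA3 had 0 and 93. CDH1, the epithelial cadherin, stood at 414 RPM in C4-2B controls and 594 RPM in 22RV1 controls. CLDN4, a tight junction protein, was 2.01-fold higher in C4-2B in RPM and ST14, a membrane serine protease, 3.97-fold. With 56-mer 0 of 13 genes in C4-2B and 0 of 12 in 22RV1 rose or fell. ESRP1, a splicing factor of epithelial cells, had a log2 change of −0.32 in C4-2B that did not pass (limma adjusted p = 0.456).

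**Figure D4:**
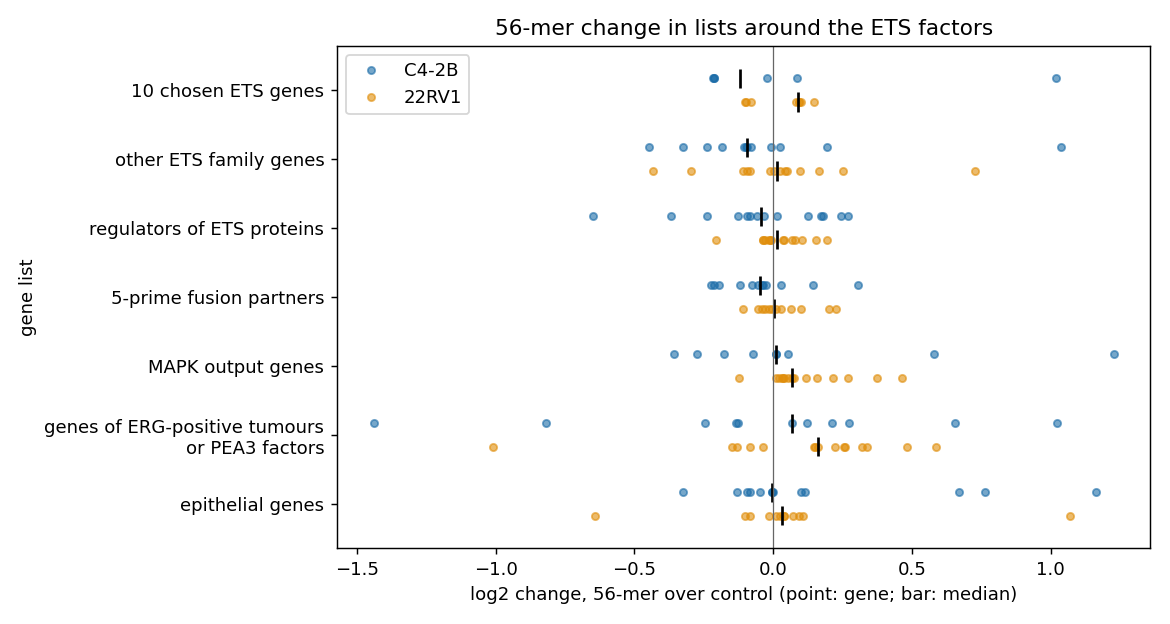
Log2 change with 56-mer of every tested gene in each list, for C4-2B and 22RV1, with 1 point per gene and a bar at the list's median. The medians lie close to 0 in both lines, from −0.12 for the members in C4-2B to 0.16 for the genes raised in ERG-positive tumours or by PEA3 factors in 22RV1.

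Among ETS genes that are no members, 0 rose or fell with 56-mer in either line. In C4-2B 3 of 12 were higher and 9 lower, with a median log2 change of −0.095, and without 56-mer replicate 1 or without control replicate 2 the split was 6 and 6. In 22RV1 8 of 14 were higher. In C4-2B ETV2 stood at 45.7 ± 10.8 without and 95.1 ± 24.1 with 56-mer (normalized counts, SD, n = 3), and the groups did not overlap. Of the 12, 1 gene higher and 1 lower had groups without overlap, where 14.7% of all genes did. In 22RV1 1 of the 14 did, where 9.03% of all genes did. The C4-2B log2 change of ETV2, 1.04, had a limma adjusted p of 0.399. ELF2 had a log2 change of −0.45 in C4-2B (limma adjusted p = 0.485) and SPIC one of 0.73 in 22RV1 (0.9996).

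For each member tested in both lines, the 2 genes with the nearest profile over the 12 libraries are given as a description, by the Euclidean distance of centred log2 values among 15527 genes. The profiles share the libraries and are led by the difference between the lines. ETV4 was nearest to ANKRD36C at 1.27 and PLXND1 at 1.30, the longest distances found. SPDEF was nearest to KLHL17 at 0.251 and ZNF787 at 0.255, EHF to TARS1 at 0.312 and CDK1 at 0.345, and ELF3 to ACVR1B at 0.293 and MPRIP at 0.312. ETV6 was nearest to NEK6 at 0.423 and TMC4 at 0.436, and ETS2 to GGT7 at 0.408 and NOP9 at 0.421.

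The authors' deposited table of each line lists 8 of the 10 members, all but ERG and FLI1. In the authors' deposited table the adjusted p was 1 for all 8 in C4-2B, and 0.99999 in 22RV1. For ETV4 in C4-2B the authors' deposited table gives a log2 fold change of 1.23, and for ETV1 there −2.27, which rests on the 3 reads of 1 control library. For EHF and ELF3 in C4-2B the authors' deposited table gives −0.21 for each.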

How the data were processed

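The 12 RNA-seq libraries were grouped by line and treatment from the labels, and replicate numbers follow the order of the records. The series text calls the replicates biological triplicates, and p-values measure the spread between these libraries only. The authors deposited, per line, a table of normalized signal per gene, in which every value was a whole number of reads divided by 1 size factor per library within 0.01. DESeq appears in the submitters' processing notes, with no version. The authors' deposited comparison tables hold log2 fold changes and p-values, raw and adjusted. For the aligner, the genome build and the annotation the entry is: not given in the sources used here. One nameless entry, 1 of 60315, was left out.

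A gene was tested in a line where 3 or more of the 6 libraries reached 10 normalized counts. The test was limma 3.58.1 in R 4.3.3 (eBayes, trend = TRUE, robust = TRUE), two-sided, on log2-transformed values with a pseudocount of 1, which understates the change of low genes. P-values were adjusted by Benjamini-Hochberg over all tested genes, with a threshold of 0.05. The difference between lines was fitted over the 12 libraries for genes that passed in both. Recovered reads, 8847368 to 13740386 per library, gave RPM (reads scaled to 1000000 per library) and exact 95% counting intervals of ratios, and DESeq2 1.42.0 and edgeR 4.0.16 were run on them. Exon lengths came from GENCODE 29, and promoters from the RefSeq table for GRCh38.p14. The scripts were tested on simulated data.

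The members and the gene lists were chosen with earlier results of these data known. Named were all members, ETS genes that are no members, up to 3 genes of each list with the highest level, antisense genes of members, the nearest 2 profiles, and further genes of the lists picked after their values were seen. Some marker genes are not reported here. Alternatives covered normalization, filter, pseudocount, tool and leaving out each library.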

Additional observations from a re-analysis of the deposited data

How the results depend on the processing

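No paired analysis was possible because nothing in the labels pairs libraries, and replicate numbers only follow the order of the records. No member passed the threshold under any alternative, and the lowest adjusted p of a member was 0.185 (limma), for the ETV4 difference without C4-2B 56-mer replicate 1. Of 302 alternative values of members, 290 kept their direction. The other 12, over 8 results, changed sign with 1 library left out, where the log2 changes ran from −0.042 to 0.26 (ETV6) and −0.056 to 0.0070 (SPDEF) in C4-2B, from −0.28 to 0.060 (ETV4), −0.015 to 0.18 (EHF) and −0.18 to 0.0083 (SPDEF) in 22RV1, and from −0.12 to 0.19 (ETV6), −0.022 to 0.28 (ETS2) and −0.16 to 0.032 (SPDEF) for the difference. Over all genes, 11 passed in C4-2B, 34 with no filter, 42 with DESeq2, 0 with edgeR, and 0 to 81 with a library left out. In 22RV1 2 passed, 11 with no filter and 0 to 13 with a library left out. For the difference 0 passed, 1 under quantile normalization, 2 with no filter and 0 to 11 with a library left out. The causes were not tested. A mean of at least 50 left ETV4 without a value in C4-2B and for the difference. Depth limits ETV1, ETV4 and ETV5 in C4-2B, ERG and FLI1.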
